A study of Caenorhabditis elegans with 4 samples.

Results

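The genes described here build and use meiotic chromosomes in the germ line of Caenorhabditis elegans: genes of the chromosome axis, cohesin, the synaptonemal complex, homolog pairing, double-strand break formation and crossing over. The list names 35 genes, taken by the gene symbol of the array annotation. Of these, 28 genes had a spot on the array, with 30 spots in all, among 14958 named genes and 20140 features of the whole array. The other 7, htp-2, syp-4, coh-4, dsb-2, cosa-1, chk-2 and scc-2, had no spot under their name and were not analysed here. All 28 measured genes had a value on all 4 arrays, so no member was lost to the filter on missing values.

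In meiosis, each chromosome is folded along a protein axis that holds cohesin and HORMA-domain proteins, and the synaptonemal complex then zips the axes of homologous chromosomes together. In the worm, regions near one end of each chromosome, called pairing centres, bring homologs together, the enzyme SPO-11 cuts the DNA, and a few of the breaks are repaired as crossovers. These steps take place in germ cells, mostly in the region of the adult gonad between the dividing stem cells and the growing oocytes. Part of the cohesin machinery also serves mitosis in other cells.

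Each of the 4 spotted arrays carried 2 labelled RNA samples, RNA of a mixed wild-type reference and mRNA of 1 of 4 preps of glp-4 adults. The gene glp-4 codes for a tRNA synthetase for valine, and conditional mutants grown at the restrictive temperature reach adulthood with very few germ cells. The sources used here do not give the allele, the strain, the growth temperature, the age of the adults or the makeup of the reference, and do not say whether the preps came from separate cultures. If they did not, the p-values measure only a spread between preps that may be technical. The only wild-type RNA was the reference itself, so the ratio of adults to reference was the only contrast, and the spread among wild-type samples does not enter it. The mutant genotype and any difference in stage or makeup between the adults and the reference therefore cannot be told apart. Every value below is a log2 ratio of glp-4 adults over the reference, not a level. This direction is likely only, since it rests on the array descriptions and the channel order and no dye was named, and if it ran the other way all signs below would be opposite. The labels name no dye swap, which would have balanced out dye effects.

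The array medians lay between -0.0695 and 0.0759 and the SDs of all values between 0.871 and 1.21, the widest on prep 2. The log2 ratios of 2 arrays had Pearson correlations of 0.719 to 0.788 across spots, which are not independent replicates. Signal over background is unknown for these spots, and precision is limited by there being 4 arrays. Preps 1 and 2 share a part of their array titles, and preps 3 and 4 share another. In whole worms, fewer germ cells and less RNA per germ cell cannot be told apart. Since every array median lay near 0, a ratio is read against the rest of its array, though how the authors centred the arrays is unknown.

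All 28 measured meiosis genes were lower in glp-4 adults. The means over 4 preps ran from -3.42 for him-3, a 10.7-fold difference, to -0.53 for cra-1, a 1.44-fold difference, with a median of -1.84 (3.59-fold). The median over all 19981 tested features was close to 0. At an adjusted p under 0.05 (limma, Benjamini-Hochberg over all tested features), 28 of 28 genes were called lower and 0 higher, against 20.9% of all features called lower and 17% called higher. At least 4-fold lower were 13 of the 28, against 2.44% of all features, at least 2-fold lower were 26, against 10.8%, and at least 8-fold lower were 4, him-3, zim-1, zim-2 and htp-1, against 0.691%. All 28 lay below 0 on all 4 arrays, as did 28.8% of the features with 4 values, and 21 lay at or below -1 on all 4 arrays, as did 5.56%. The adjusted p lay under 0.01 for 27 genes and was 0.0459 for cra-1. With preps 1 and 2 alone, which share a part of their titles, 23 genes were called lower (background 9.43%), and with preps 3 and 4 alone 27 were (background 12.9%). Of the 28 genes, 20 were among the lowest 5% of all tested features and 26 among the lowest 10%.

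**Figure D1:**
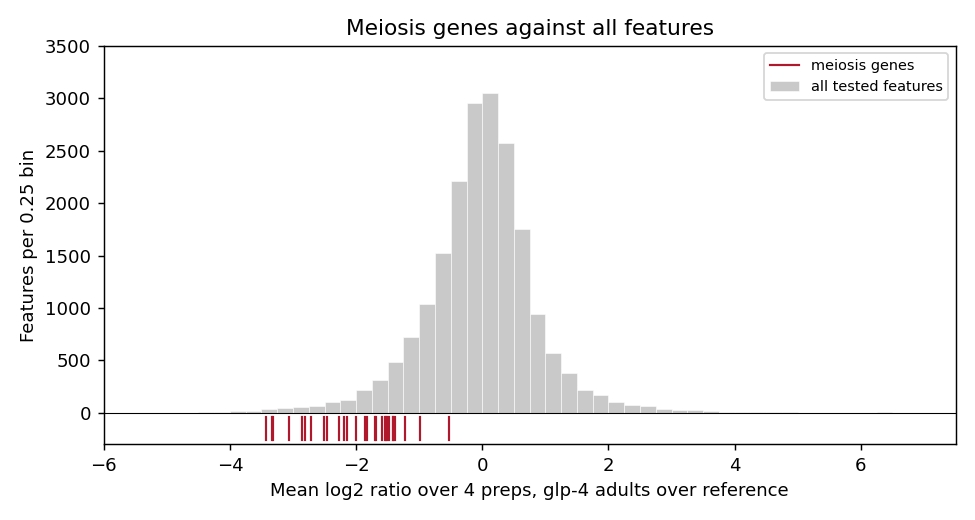
Histogram of the mean log2 ratio (x axis) of all 19981 tested features in bins of 0.25 (y axis, features per bin), with a red line below the axis for each of the 28 meiosis genes. The meiosis genes lie between -3.42 and -0.53, left of the bulk of all features, whose median is close to 0.

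The chromosome axis genes were the lowest of the roles by median. HIM-3, HTP-1 and HTP-3 are HORMA-domain proteins that coat the axis, and LAB-1 sits on the chromosome arms that keep their cohesion through the first division. The gene him-3 (ZK381.1) had log2 ratios of -3.10, -3.66, -2.89 and -4.04 on preps 1 to 4, a mean of -3.42 ± 0.52 (SD, n = 4 preps; adjusted p = 0.000123 in limma). It ranked as number 73 from the lowest of the 19981 features. For htp-1 (F41H10.10) the values were -2.41, -3.82, -2.95 and -3.08 on preps 1 to 4, a mean of -3.07 ± 0.58. The gene htp-3 (F57C9.5) had -2.21, -3.49, -1.89 and -2.42, a mean of -2.50 ± 0.69, and lab-1 (C03D6.6) had -1.94, -3.22, -2.93 and -2.77, a mean of -2.72 ± 0.55. All 4 axis genes were at least 4-fold lower on average, and prep 2 gave the lowest value for each of them except him-3. HTP-1 has a close paralog, HTP-2, whose gene had no spot of its own name; how much of the signal at the htp-1 spot came from htp-2 RNA was not tested.

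On the same array, him-3 was lower than htp-3 on every prep, with differences of -1.62 to -0.17 (mean -0.92 ± 0.59), and htp-1 was lower than htp-3 with differences of -1.07 to -0.20 (mean -0.56 ± 0.39). Each of these orders held on 4 of 4 preps. Between him-3 and htp-1 the sign of the difference split 2 against 2 (mean -0.35 ± 0.55), so these neighbours in the order did not differ beyond their spread. Differences of this kind were computed for 15 pairs of genes or roles with an exact two-sided sign permutation over the preps. With 4 preps this test cannot give a p below 0.125, so no difference could pass; p was 0.125 (0.208 after Benjamini-Hochberg over the 15) wherever all 4 preps had one sign.

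**Figure D2:**
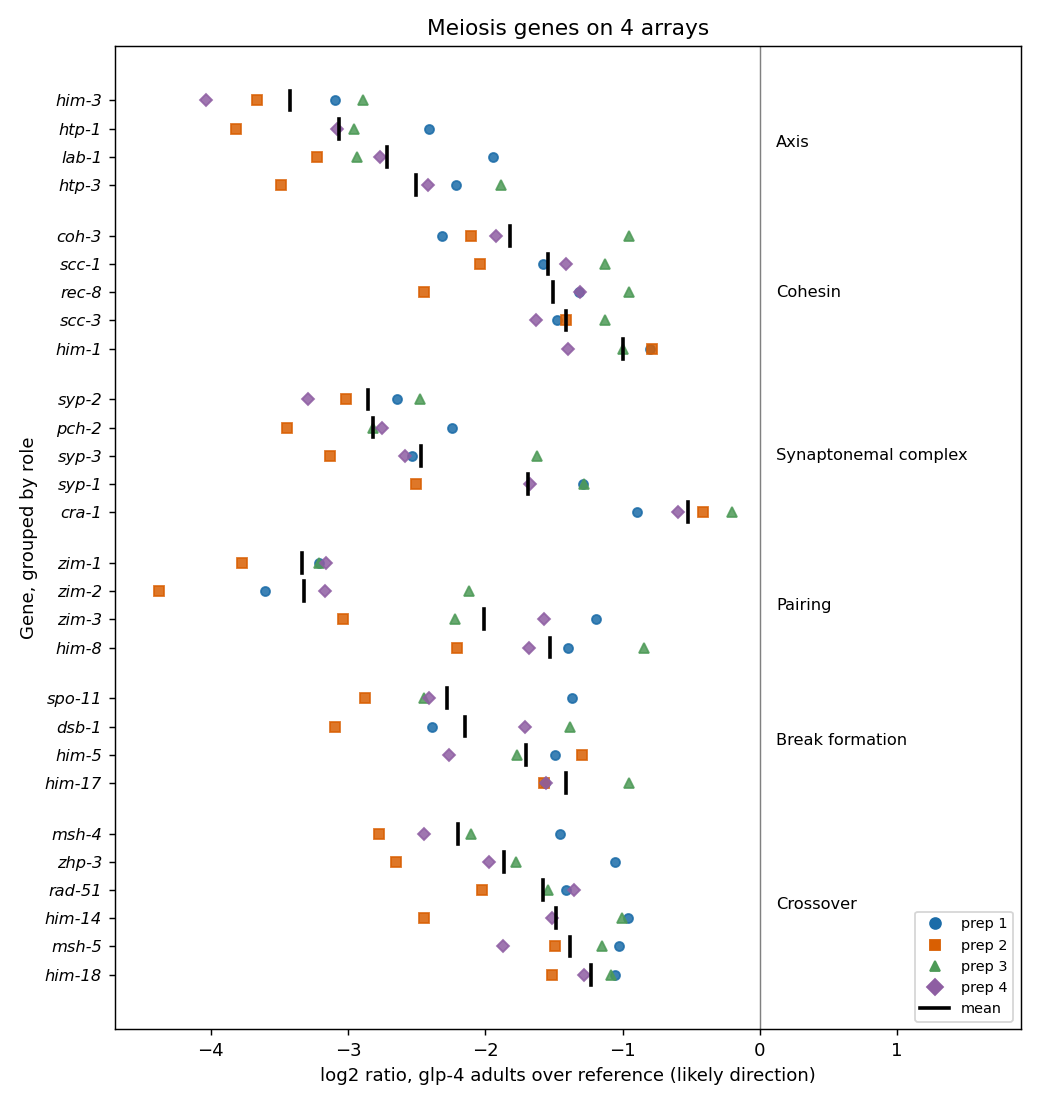
Log2 ratio of glp-4 adults over reference (x axis) for the 28 meiosis genes, grouped by role and ordered by mean, with 1 marker per prep and a black bar at the mean. All markers lie below 0, from -4.38 for zim-2 on prep 2 to -0.20 for cra-1 on prep 3, and the squares of prep 2 are often the lowest of a row.

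Cohesin rings hold sister chromatids together, and their kleisin subunit decides which form they take. REC-8 and COH-3 are kleisins of meiosis and SCC-1 is the kleisin of mitosis, while HIM-1 (an SMC1 protein) and SCC-3 are shared by both forms. The meiotic kleisin gene rec-8 (W02A2.6) had log2 ratios of -1.32, -2.45, -0.95 and -1.31 on preps 1 to 4, a mean of -1.51 ± 0.65. The mitotic kleisin gene scc-1 (F10G7.4) had -1.58, -2.04, -1.13 and -1.41, a mean of -1.54 ± 0.38. The values of both overlapped: rec-8 minus scc-1 was 0.26, -0.41, 0.18 and 0.10 (mean 0.03 ± 0.30, exact p = 0.875), and the sign of that mean turned when prep 1 or prep 3 was left out. The ratios of these kleisin genes did not differ beyond their spread. The gene coh-3 (F08H9.1) had -2.31, -2.10, -0.95 and -1.92 (mean -1.82 ± 0.60), lower than scc-1 on 3 of 4 preps (exact p = 0.375). COH-3 has a near-identical relative, COH-4, without a spot of its own name, and how far coh-4 RNA contributed to the coh-3 spot was not tested.

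Among the shared subunits, scc-3 (F18E2.3) had -1.48, -1.41, -1.13 and -1.63 (mean -1.41 ± 0.21), the narrowest spread of all 28 genes. The gene him-1 (F28B3.7) had a mean of -0.99 ± 0.28, or 1.99-fold lower, from 2 spots with means of -0.80 ± 0.40 and -1.18 ± 0.26. It was the second smallest difference among the meiosis genes. No cohesin gene reached a 4-fold difference, whereas all 4 axis genes did. The median of the axis genes lay below the median of the 5 cohesin genes on every prep, with differences of -0.83, -1.54, -1.92 and -1.51 on preps 1 to 4 (mean -1.45 ± 0.45, exact p = 0.125, the smallest p that 4 preps allow).

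The synaptonemal complex genes differed widely among themselves. SYP-1, SYP-2 and SYP-3 are coiled-coil proteins of the central region that depend on each other for assembly. The gene syp-2 (C24G6.1) had log2 ratios of -2.64, -3.01, -2.47 and -3.29 on preps 1 to 4, a mean of -2.86 ± 0.37. Values of syp-3 (F39H2.4) were -2.53, -3.13, -1.62 and -2.58, a mean of -2.47 ± 0.63. The gene syp-1 (F26D2.2) had -1.29, -2.51, -1.28 and -1.67, a mean of -1.69 ± 0.58, and on each of the 4 preps it was the least low of these 3 genes. All 3 were called lower, with adjusted p between 0.000123 and 0.00179 in limma.

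The AAA+ ATPase gene pch-2 (F10B5.5), whose protein remodels HORMA-domain proteins and helps to check synapsis, had -2.24, -3.44, -2.82 and -2.76, a mean of -2.81 ± 0.49. It thus lay close to syp-2. At the other end, cra-1 (R13F6.10), which codes for a protein related to a subunit of an acetyltransferase and promotes assembly of the complex, had -0.90, -0.41, -0.20 and -0.60 (mean -0.53 ± 0.30, adjusted p = 0.0459). Its call was lost under 10 of the 15 alternative settings, including leaving out any 1 of the 4 preps, with adjusted p between 0.0433 and 0.231 over all 15. In rank it was number 4597 from the lowest of 19981 features, while every other meiosis gene lay at or below rank 2251. The role median still lay below that of cohesin on 4 of 4 preps (mean difference -0.88 ± 0.24).

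**Figure D3:**
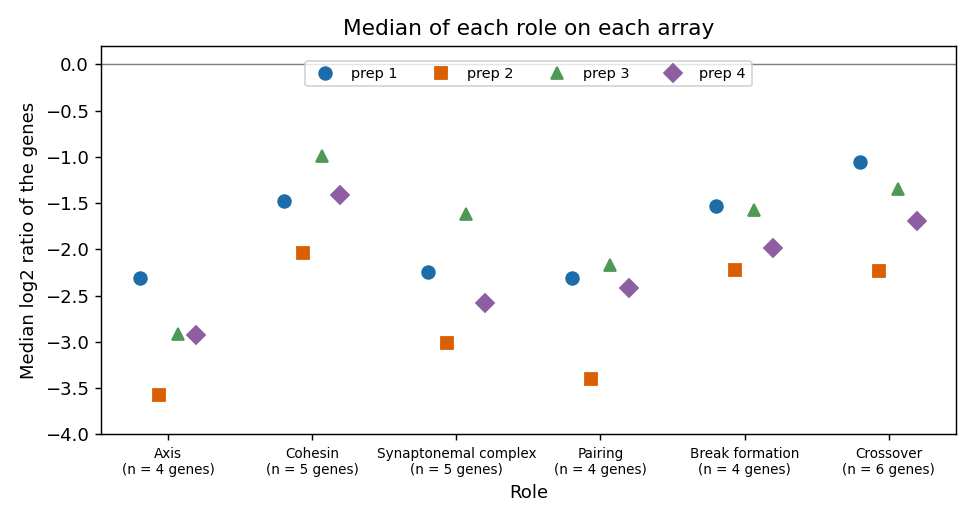
Median log2 ratio of the tested genes of each of 6 roles (y axis) on each prep (1 marker per prep). Axis medians run from -3.58 to -2.31 and cohesin medians from -2.04 to -0.99, and the axis lies below cohesin on each of the 4 preps.

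The pairing genes zim-1, zim-2, zim-3 and him-8 code for zinc-finger proteins that bind the pairing centres, HIM-8 on the X chromosome and the ZIM proteins on the autosomes. The RefSeq annotation lists them as consecutive protein-coding genes of chromosome IV. The gene zim-1 (T07G12.6) had log2 ratios of -3.21, -3.78, -3.21 and -3.16 on preps 1 to 4, a mean of -3.34 ± 0.29 with the lowest adjusted p of the list, 7.8e-05 in limma. For zim-2 (T07G12.10) they were -3.61, -4.38, -2.12 and -3.17, a mean of -3.32 ± 0.94, the widest spread of the 28 genes. Both were about 10-fold lower in the mean, at 10.1-fold and 9.99-fold. The gene zim-3 (T07G12.11) had -1.19, -3.04, -2.22 and -1.57 (mean -2.01 ± 0.81), and him-8 (T07G12.12) had a mean of -1.53 ± 0.57 over its 2 spots.

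The 2 spots of him-8 disagreed. One had values of -0.59, -1.36, -0.34 and -1.02 (mean -0.83 ± 0.45) and the other -2.20, -3.06, -1.34 and -2.34 (mean -2.23 ± 0.71). Spot 2 was lower on every prep, by 1.41 ± 0.32 on average, so the fold assigned to him-8 depends on the spot, and with the smaller one alone the gene was still called lower. Which part of the gene each spot covers was not analysed here. With both spots averaged, zim-1 minus him-8 was -2.37 to -1.48 and zim-2 minus him-8 was -2.21 to -1.28, below 0 on 4 of 4 preps each. For zim-3 minus him-8 the signs split 2 against 2 (mean -0.48 ± 0.76, exact p = 0.5). The next protein-coding gene on the side of zim-1, svct-1, had values of 1.22, -2.07, 0.71 and -0.10 (mean -0.06 ± 1.44, adjusted p = 0.934 in limma). Its SD was wider than that of any meiosis gene (at most 0.94), so these values cannot decide whether svct-1 differed.

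**Figure D4:**
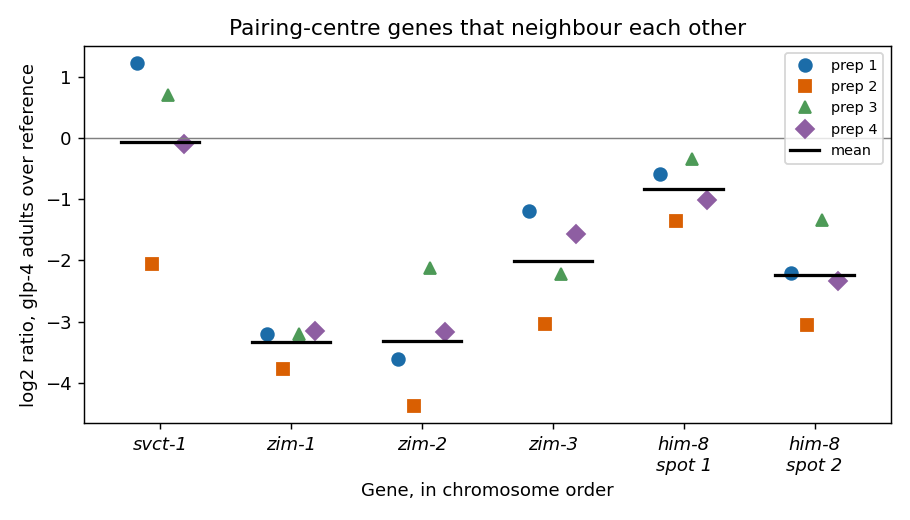
Log2 ratio (y axis) of the neighbouring genes svct-1, zim-1, zim-2, zim-3 and him-8 in chromosome order (x axis), with 1 marker per prep, a black bar at the mean and the 2 spots of him-8 side by side in no known order. The means of zim-1 and zim-2 lie at -3.34 and -3.32, those of the him-8 spots at -0.83 and -2.23, and svct-1 spreads across 0.

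Genes of double-strand break formation were intermediate. SPO-11 is the topoisomerase-like enzyme that makes the breaks, DSB-1 and HIM-5 promote its activity, and HIM-17 is a chromatin-associated protein needed for breaks. The gene spo-11 (T05E11.4) had log2 ratios of -1.37, -2.88, -2.45 and -2.41 on preps 1 to 4, a mean of -2.28 ± 0.64. For dsb-1 (F08G5.1) the values were -2.39, -3.10, -1.38 and -1.71, a mean of -2.14 ± 0.76. These were the only genes of this role at or past a 4-fold difference. The gene him-5 (D1086.4) had -1.49, -1.30, -1.77 and -2.27 (mean -1.71 ± 0.42), with prep 2 as its highest value, unlike most members. For him-17 (T09E8.2) they were -1.56, -1.57, -0.95 and -1.56, a mean of -1.41 ± 0.31. The median of the role lay below that of cohesin on 4 of 4 preps, with differences of -0.58 to -0.05, as did that of the pairing genes (mean difference -1.09 ± 0.23).

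Among the genes that repair breaks into crossovers, the median did not lie below that of cohesin on every prep: the difference was 0.43 on prep 1 and -0.20, -0.35 and -0.28 on preps 2 to 4 (mean -0.10 ± 0.36, exact p = 0.625). RAD-51 is the recombinase that pairs the broken end with its homolog, and rad-51 (Y43C5A.6) had -1.42, -2.02, -1.54 and -1.35, a mean of -1.58 ± 0.30. HIM-14 (the worm MSH4) and MSH-5 form a clamp that stabilises crossover intermediates. The gene him-14 (ZK1127.11) had -0.96, -2.45, -1.01 and -1.51 (mean -1.48 ± 0.69) and msh-5 (F09E8.3) had -1.03, -1.49, -1.15 and -1.87 (mean -1.39 ± 0.38). These partners overlapped in value: him-14 was the lower one on prep 2 alone, and the mean difference of -0.10 ± 0.59 turned positive without prep 2. The RING-finger gene zhp-3 (K02B12.8), which helps to mark crossover sites, had -1.05, -2.65, -1.78 and -1.97 (mean -1.86 ± 0.66). The gene him-18 (T04A8.15), for a scaffold of nucleases that resolve joint molecules, ranged from -1.51 to -1.05 (mean -1.23 ± 0.21).

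The symbol msh-4 belongs in the annotation to T02G5.6, a pseudogene near him-14 on chromosome II, and its spot had -1.46, -2.78, -2.10 and -2.45, a mean of -2.20 ± 0.56. That was lower than him-14 on 4 of 4 preps, by 0.71 ± 0.36. Whether this spot also binds RNA of him-14 was not tested, so its value is uncertain as a measure of the pseudogene. Without it, all 27 protein-coding meiosis genes were called lower. It was also the only one of the 6 measured genes of this role past a 4-fold difference.

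The preps differed in the same way over many of these genes. Prep 2 gave the lowest value for 20 of the 28 genes (71.4%) and prep 3 the highest for 14 (50%), and the medians of the 28 genes were -1.48, -2.58, -1.58 and -1.90 on preps 1 to 4. The same tendency held over all 4053 features called lower with 4 values, where prep 2 was lowest for 56.4% and prep 3 highest for 46.6%. When each array was centred and scaled to one SD, prep 2 was lowest for 7 of the 28 genes (25%) and prep 1 for 12 (42.9%), beside 18.9% and 55% of the 4053 lower features. Prep 2 was the array with the widest spread of all values (SD 1.21). The median SD of the meiosis genes over preps was 0.56, beside 0.33 for all lower features with 4 values. These sets are not alike: the median ratio of all lower features was -1.02, against -1.84, and being called favours a small SD. Whether the meiosis genes vary more than other genes of like ratio was not tested.

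The 28 genes lay on chromosomes I to V and none on the X, per the RefSeq annotation. Chromosome IV held 11 of them with a median of -2.14, and chromosome I held 5 with a median of -2.47. Of all tested genes with a known chromosome, 2239 lay on IV, 2007 on I and 2227 on the X. The other chromosomes held between 1910 (III) and 3839 (V). Whether the meiosis genes are spread unevenly over the chromosomes was not tested. Over all genes with a known chromosome, the share called lower was 11.8% on the X and between 16.7% (V) and 32.1% (I) on the autosomes. Next to the meiosis genes, 39 protein-coding neighbours that were not on the list were tested. Of these neighbours, 18 (46.2%) were called lower and 7 higher, with a median of -0.19, against 22.1% of all named genes called lower. Several of the neighbours are themselves germline genes: pgl-1, a germ granule gene beside him-3, had a mean of -2.81 ± 0.29, nos-2, a Nanos gene beside him-14, had -3.31 ± 0.37, and mex-5, an embryonic polarity gene beside rec-8, had -3.92 ± 0.81. Other neighbours went the opposite way, such as the fatty acid elongase gene elo-6 beside htp-1 (1.49 ± 0.38). These examples were chosen after their values were seen.

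Other genes of the same processes were mostly lower too. Of 12 tested genes of pairing and synapsis outside the list, 9 were called lower, 0 higher and 3 were not called (median -1.72), with 11 lower and 0 higher at an unadjusted p under 0.05 in limma. The lowest were the Polo-like kinase gene plk-1 (C14B9.4, -2.99 ± 0.60), the synaptonemal complex gene syp-6 (F57B10.4, -2.22 ± 0.70), the Skp1-related gene skr-2 (F46A9.4, -2.16 ± 0.25) and the SUN-domain gene sun-1 (F57B1.2, -2.12 ± 0.22), whose protein links chromosome ends to the cytoskeleton. The gene dlc-1, for a dynein light chain, had -0.06 ± 0.20 and did not pass. These lists were drawn up from knowledge of their function, but with earlier results of these data known, so their counts are descriptions and not independent support. The background for their counts is the 20.9% of all features called lower. At an unadjusted p under 0.05 in limma it is the 25.7% that were lower and the 23.2% that were higher.

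Of 33 other genes of break formation, repair and crossing over, 25 were lower, 0 higher and 8 not called (median -1.12), with 29 lower and 0 higher at an unadjusted p under 0.05 in limma (25.7% and 23.2% of all features). The mismatch repair gene msh-2 (H26D21.2) was lowest at -3.33 ± 0.46, lower in the mean than him-14 and msh-5, genes of the same MutS family. The nuclease gene mre-11 (ZC302.1) had -2.37 ± 1.15, the single-strand binding gene rpa-1 (F18A1.5) -2.22 ± 0.25 and the SMC5/6 complex gene smc-6 (F54D5.14) -1.95 ± 0.41. For mre-11, prep 1 gave -0.69 while the other preps lay between -3.27 and -2.64. Of 22 other cohesin, condensin and segregation genes, 20 were lower, 0 higher and 2 not called (median -1.33), with the same 20 and 0 at an unadjusted p under 0.05 in limma. The katanin subunit gene mei-2 (F57B10.12, -3.75 ± 0.64), the securin gene ify-1 (C27A2.3, -2.73 ± 1.07), the Aurora B kinase gene air-2 (B0207.4, -2.55 ± 0.60) and the checkpoint kinase gene bub-1 (R06C7.8, -2.45 ± 0.26) led. The condensin gene dpy-27, which acts in X chromosome dosage compensation, had 0.06 ± 0.12 and did not pass.

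Marker genes of germ cells, oocytes, sperm, neurons and epidermis were mostly lower or lower in part, like the meiosis genes, and those of intestine and muscle mostly higher; their part in the ratios of the meiosis genes was not tested. Of 14 genes on the germ cell list (mitotic zone, germ granules and other germline genes), 14 were lower, with medians of -2.32 to -1.61 on the preps. The lowest were mex-5, described above as an embryonic polarity gene, the translational repressor gene gld-1 (-2.99 ± 0.63), pgl-1 and cgh-1 (-2.23 ± 0.28). Less low were the mitotic zone genes glp-1, lst-1, fbf-2 and sygl-1, with means between -1.79 and -1.19. They were not set apart from the list, since glh-4 (-1.72 ± 0.39) lay among them and nos-3 (-1.03 ± 0.28) was the least low. All 14 oocyte genes were lower, with medians of -4.42 to -3.62, led by cpg-2 (-4.84 ± 0.23) and pos-1 (-4.66 ± 0.28). Of 30 major sperm protein genes, 29 were lower (medians -3.69 to -2.66), as were 4 of 9 other sperm genes (medians -0.61 to -0.02). In the body, 9 of 11 intestine genes (medians 2.09 to 2.36) and 7 of 9 muscle genes (medians 0.24 to 2.20) were higher, with 0 lower in limma in either list and also 0 at an unadjusted p under 0.05. Of 11 neuron genes 8 were lower (medians -1.16 to -0.55), and of 8 epidermis genes 6 were lower and 1 higher (medians -1.28 to -0.50). Among 8 somatic gonad genes 1 was lower and 3 higher (medians 0.12 to 0.38), too few to set apart from the background. That background, for all these lists, is 20.9% of all features called lower and 17% called higher. At an unadjusted p under 0.05 in limma, 25.7% of all features were lower. The median of the meiosis genes, -1.84, thus lay near that of the germ cell list (-2.05) and above that of the oocyte list (-4.06), a description without a test.

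**Figure D5:**
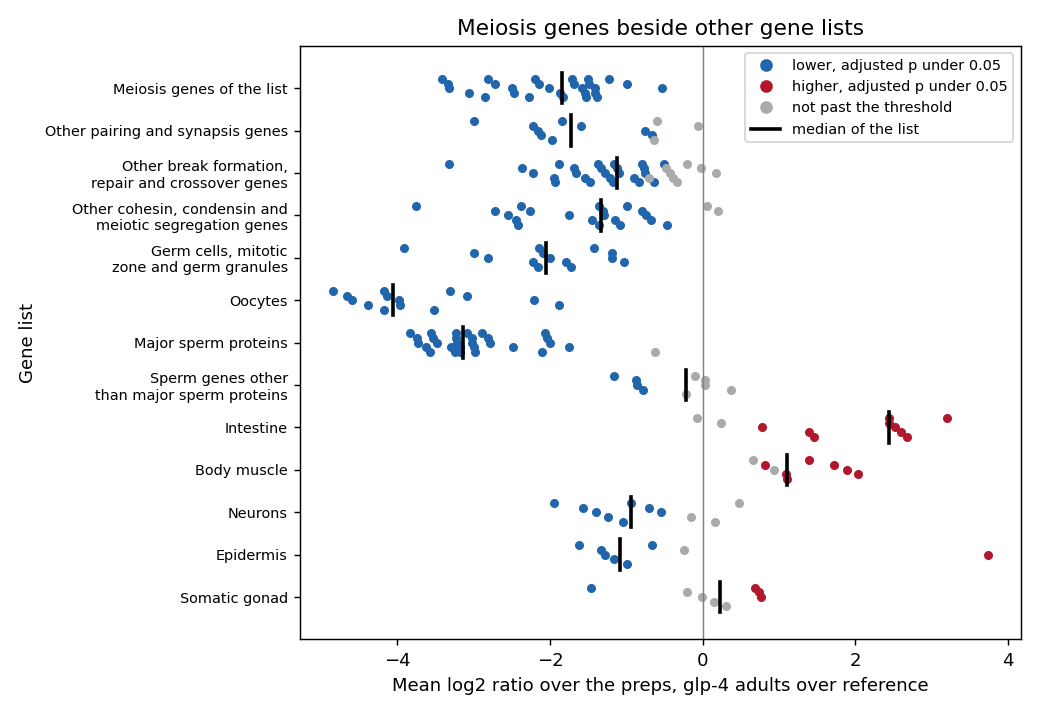
Mean log2 ratio (x axis) of every tested gene of the meiosis list and of 12 other lists (rows), coloured by its call in limma, with a black bar at the median of each list. The meiosis genes (median -1.84) lie entirely below 0, beside oocyte genes at a median of -4.06 and intestine genes at 2.44.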

How the data were processed

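Each array has 1 column of 21632 deposited log2 ratios. That these are log2 was read from the values, since raising 2 to each value below -2 gave a multiple of 0.001 in 100% of cases (tolerance 1e-06). The sources used here do not give the scanner, background correction, normalization or dyes, so how the authors centred the arrays is unknown. Array medians lay within 0.1 of 0, and no centring was added.

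The platform annotation named 1 gene for 16450 spots. Chromosomes, gene types and neighbours came from the RefSeq table of assembly WBcel235. Spots of 1 gene were averaged per array. A feature measured on 3 or more arrays was tested against 0, two-sided, by lmFit (intercept only) and eBayes of limma 3.58.1 (R 4.3.3). This step was also run on simulated data with independent noise on each array. That run cannot show how noise shared between features or arrays affects the p-values of these data. Values after ± are SDs over preps. Tables and plots used Python 3.11.15, pandas 2.3.3 and matplotlib 3.10.9.

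The meiosis genes and all lists were chosen with earlier results of these data known. Every measured member is named. Of each other list, the 4 lowest and 4 highest genes past the threshold could be named, and further names were chosen after their values were seen. Promoter and protein sequences were not used here.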

Additional observations from a re-analysis of the deposited data

Results flagged for a closer look

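Among 61 groups of 4 preps examined (genes, role medians and differences), 4 had a prep far from the others by Dixon's 95% limit on the gap to the nearest of the other preps, and chance alone gives such a gap in about 1 of 20 groups. The pairing gene zim-1 had -3.78 on prep 2, against -3.21 to -3.16 on the other preps. The break formation gene him-17 had -0.95 on prep 3, against -1.57 to -1.56. The securin gene ify-1 had -1.13 on prep 3, against -3.44 to -3.13, and the katanin gene mei-2 had -2.80 on prep 3, against -4.20 to -3.96.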

How the results depend on the processing

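All 28 meiosis genes kept their sign under the 15 alternatives, and 406 of 420 combinations of gene and alternative kept their side of the threshold. The number called lower was 27 without any 1 of the 4 preps, with arrays centred on their medians, and with arrays centred and scaled to one SD, cra-1 being the gene lost each time. With preps 1 and 2 alone it was 23, the genes lost being cra-1, him-1, him-14, zhp-3 and zim-3, and with preps 3 and 4 alone 27. A random block for the shared parts of the array titles could not be fitted, because limma gives no correlation for 3 blocks of 4 arrays; averaging the arrays that share a part, chosen after seeing the data, gave 27. Over all features, 4174 were lower and 3403 higher; with preps 1 and 2 alone 1847 and 926, with preps 3 and 4 alone 2517 and 2042, and without 1 prep 2073 to 2789 higher (2073 without prep 4). The counts of the other break formation, repair and crossover genes fell from 25 to 13 with preps 1 and 2 alone. The fewer arrays of these settings leave fewer degrees of freedom. Without 1 prep, rec-8 minus scc-1 ranged from -0.0425 to 0.18 (-0.0425 without prep 1 and -0.02 without prep 3) and him-14 minus msh-5 from -0.25 to 0.19 (0.19 without prep 2). Each ratio, and each difference between genes or roles, was taken within an array. No pairing of arrays between groups was possible because the arrays form 1 group.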
